A study of Mus musculus with 18 samples.

Results

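The 10 genes described here encode kinases of the splicing machinery and the splicing factors that such kinases modify: the CDC-like kinases Clk1, Clk2, Clk3 and Clk4, the serine- and arginine-rich (SR) proteins Srsf2, Srsf3, Srsf5 and Srsf7, and the SR-like proteins Tra2a and Tra2b. They were picked by name from the 23420 genes of the deposited tables, and all 10 were found and passed the filter on low counts that left 11876 genes to test. The choice was made with measured levels of these same libraries in view, and which comparison guided it is not recorded. Comparisons of their levels are therefore a description, in which an adjusted p sets a difference against the spread between libraries and supports nothing beyond that. The mean length of their transcripts, described further on, is a different readout from the same libraries. Whether it entered the choice is not recorded.

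RNA was sequenced from mouse bone marrow-derived dendritic cells (BMDCs) of the C57BL/6 strain, grown with the cytokine GM-CSF at 20 ng per ml, re-plated at day 9, treated for 8 hours and sorted as live cells with high CD11c. There were 6 groups of 3 libraries; the labels and the series' design text give different numbers of biological replicates. Cells of Bat3 fl/fl CD11c Cre mice (cKO), in which Cre under the CD11c promoter deletes Bat3 (gene symbol Bag6) in CD11c-expressing cells, received LPS or medium. Wild type (WT) cells received LPS with IL10 and TGF-β, LPS alone, IL10 and TGF-β alone, or medium. LPS is the bacterial cell wall component that activates dendritic cells through Toll-like receptor signalling, and IL10 and TGF-β are cytokines that restrain them. The labels give no Cre or floxed allele for the WT cells and do not say which libraries came from separate animals, so p-values measure the spread between these libraries only.

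SR proteins bind exonic sequences of pre-mRNA and recruit the spliceosome through a tail of alternating arginine and serine. CLK kinases sit in the nucleus and phosphorylate that tail, which releases SR proteins from nuclear speckles and changes their activity, while kinases of the SRPK family act mainly in the cytoplasm and govern nuclear import. SR proteins also limit their own amount: many of their genes carry a so-called poison exon, whose inclusion places a stop codon early in the transcript and exposes it to nonsense-mediated decay. CLK1 and CLK4 transcripts are likewise kept in part as unspliced or exon-skipped forms that yield no active kinase. Toll-like receptor signalling is accompanied by wide changes in splicing in myeloid cells.

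The poison exons annotated in Srsf3 and Srsf7 are shown here because mean transcript length, described further on, was tested for both genes. Whether these exons account for the length results was not tested. Srsf3 lies on chromosome 17 at positions 29032660 to 29043372 on the plus strand (GRCm38), and its GENCODE transcript Srsf3-201 holds an extra exon of 456 bases at chr17:29039454-29039909, as exon 4 of 7. Srsf7 lies on chromosome 17 at positions 80200080 to 80207369 on the minus strand, and its transcript Srsf7-203 holds an extra exon of 460 bases at chr17:80204622-80205081, as exon 4 of 9. Each line gives, from GENCODE transcripts and 5′ to 3′, the last 30 bases of the shared upstream exon and then either the extra exon up to its first stop codon in the reading frame, with that codon in capitals, or the first 30 bases of the next coding exon.
Srsf3-201: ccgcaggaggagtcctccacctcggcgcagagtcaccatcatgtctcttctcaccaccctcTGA
Srsf3-202: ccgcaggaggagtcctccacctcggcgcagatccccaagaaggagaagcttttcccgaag
Srsf7-203: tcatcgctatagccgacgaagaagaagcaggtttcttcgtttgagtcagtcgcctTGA
Srsf7-201: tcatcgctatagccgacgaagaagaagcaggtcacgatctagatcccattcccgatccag
The TGA stop ends 34 bases into the extra exon of Srsf3 and 28 bases into that of Srsf7. It lies 548 bases before the last exon junction of Srsf3-201 and 699 bases before that of Srsf7-203, and GENCODE annotates both transcripts as targets of nonsense-mediated decay.

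The libraries held 8056831 to 12068759 expected counts. CPM values are counts scaled to a common library total, after each total was multiplied by a scaling factor fitted per library (TMM). The factors were 0.797 to 0.807 in cKO LPS and 0.912 to 1 in WT LPS libraries. They were 1.12 to 1.15 in cKO medium and 1.14 to 1.17 in WT medium. With cytokines they were 1.02 to 1.07, and with LPS and cytokines 0.925 to 0.975. A lower factor gives a higher CPM for the same count and total. The deleted gene, Bag6, had 6.31 to 11.3 CPM in cKO LPS cells and 4.56 to 7.31 CPM in cKO medium cells. It had 22.8 to 27.6 CPM over the WT groups. Reads of Bag6 thus remained in the cKO libraries. The first replicate of cKO LPS and of cKO medium had high Xist (1010 and 526 CPM) and near-absent Ddx3y (0.424 and 0.181 CPM), the pattern of female cells. All other libraries had the reverse, the pattern of male cells, so by these genes sex was not balanced between the genotypes. Results that depend on those first cKO replicates are given with and without them. Dendritic cell markers were present (10 of 10 genes with counts in both medium groups). Their summed level was 1360 to 1840 CPM with IL10 and TGF-β and 1230 to 1590 CPM with LPS, IL10 and TGF-β. It was 3590 to 7610 CPM in WT medium, 6310 to 6880 CPM in WT LPS and 6980 to 7260 CPM in cKO LPS cells. Flt3 and Cd209a were at 0 in all cKO LPS libraries, and their means in WT LPS cells were also low, at 0.222 and 0.117 CPM. T and NK cell, B cell and erythroid markers summed to at most 2.24 CPM in any library. Expected counts were fractional, as when reads are shared with other genes or copies, in 17 of 18 libraries for Srsf3, 16 for Clk1 and Tra2b and 14 for Clk3, which leaves their counts less certain. In bulk RNA, fewer cells of a type and less RNA per cell cannot be told apart.

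Per unit length, Clk1, Clk4 and Clk3 stood above all 6 SR and Tra2 genes in cKO LPS cells, and in none of the other groups, while Clk2 was lowest in every group. On the TPM scale, which corrects for gene length and library total, the order in cKO LPS cells was Clk1 at 161, Clk4 at 120 and Clk3 at 102, ahead of Srsf3 at 57.3, Tra2a at 47.6, Srsf5 at 43.7, Tra2b at 39.8, Srsf2 at 37.5, Srsf7 at 22.7 and Clk2 at 4.25 TPM. The ranges over the 3 libraries did not overlap between neighbours in that order except between Tra2a and Srsf5, Srsf5 and Tra2b, and Tra2b and Srsf2. In cKO medium cells Srsf3 at 159, Srsf5 at 157, Srsf2 at 105 and Tra2b at 101 led, ahead of Clk3 at 66.3, Srsf7 at 55.5, Clk1 at 42.0, Clk4 at 34.2, Tra2a at 29.0 and Clk2 at 3.29 TPM. In WT LPS cells the order began with Srsf5 at 143, Srsf3 at 108, Clk1 at 76.1, Clk3 at 69.7, Tra2b at 58.3 and Clk4 at 56.9 TPM, and the range of each of the first 5 overlapped that of the next. In WT medium cells the order was Srsf5 at 285, Srsf3 at 266, Tra2b at 152, Srsf2 at 77.9, Srsf7 at 77.1, Tra2a at 43.4, Clk3 at 38.5, Clk1 at 29.5, Clk4 at 22.3 and Clk2 at 5.06 TPM, with overlapping ranges for Srsf5 and Srsf3, Srsf2 and Srsf7, and Tra2a and Clk3. Clk1 thus held rank 1 of 10 in cKO LPS cells, 7 in cKO medium, 3 in WT LPS and 8 in WT medium cells. The 4 Clk genes together summed to 385 to 393 TPM in cKO LPS libraries, 137 to 153 TPM in cKO medium, 198 to 217 TPM in WT LPS and 88.7 to 101 TPM in WT medium. The 6 SR and Tra2 genes together summed to 230 to 261 TPM in cKO LPS libraries, 519 to 687 TPM in cKO medium, 299 to 518 TPM in WT LPS and 808 to 1010 TPM in WT medium. The SR and Tra2 sum was below the Clk sum in the 3 cKO LPS libraries and above it in every other library. Between groups, TPM of most genes shifted. On the log2(TPM + 1) scale the median of all genes was -0.47 between cKO LPS and cKO medium cells. It was -0.31 between cKO LPS and WT LPS cells and -0.19 between WT LPS and WT medium cells. The part of this shift in the sums was not tested.

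**Figure D1:**
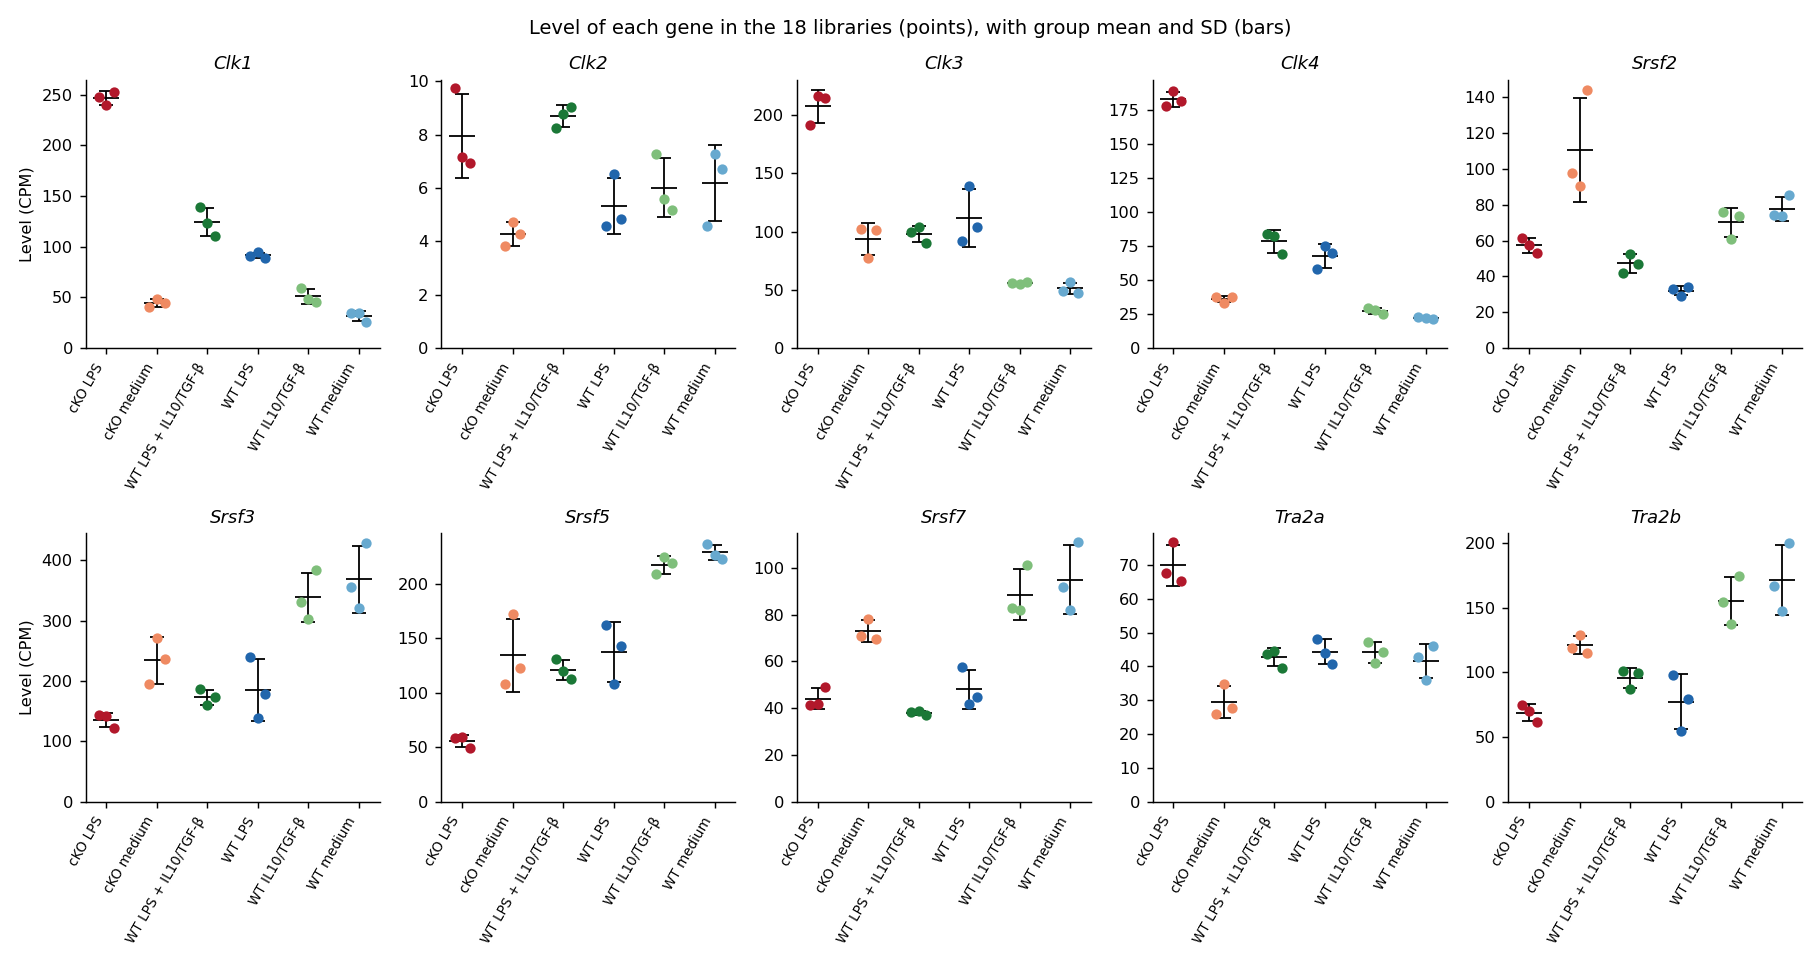
Level in CPM (vertical axes, from 0) of each gene in the 18 libraries, grouped along the horizontal axes by genotype and treatment. Points are libraries and bars are the group mean and SD (n = 3); Clk1 and Clk4 stand highest in the 3 cKO LPS libraries, at 240 to 253 and 178 to 189 CPM.

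The counts of genes past an adjusted p of 0.05 (edgeR's quasi-likelihood test, Benjamini-Hochberg adjusted over all 11876 genes) were as follows. Between cKO LPS and WT LPS cells, 6 of the 10 were higher and 2 lower, where 16% of all genes tested were higher and 19.3% lower. Between cKO medium and WT medium cells, 4 were higher and 5 lower, where 15.8% of all genes were higher and 14.4% lower. LPS raised 5 and lowered 5 in cKO cells, where it raised 29.3% and lowered 34.8% of all genes. In WT cells it raised 3 and lowered 5, where it raised 29.8% and lowered 28.9% of all genes. Since the members were picked with these levels in view, nothing is read from these counts. The median log2 fold change over all genes was between -0.094 and 0.011 in these 4 comparisons.

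Clk1 and Clk4 were higher in cKO than in WT cells under LPS by nearly the same fold. Clk1 lies on chromosome 1 at positions 58411988 to 58424088. Its level was 248, 240 and 253 CPM in the cKO LPS libraries, against 91.2, 94.4 and 89.3 CPM in WT LPS. Every cKO library lay above every WT library, and the fitted difference was 2.69-fold, a log2 fold change of 1.43 ± 0.12 (SE). In medium, Clk1 had 40.5, 48.3 and 44.7 CPM in cKO cells, against 34.4, 34.6 and 26.0 CPM in WT cells. These groups did not overlap either, but the difference was smaller, at 1.40-fold (log2 0.49 ± 0.12, adjusted p = 0.0043 in edgeR). LPS raised Clk1 5.55-fold in cKO cells (log2 2.47 ± 0.12) and 2.89-fold in WT cells (log2 1.53 ± 0.12).

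Clk4, the closest relative of Clk1 in sequence, on chromosome 11 at positions 51263114 to 51281770, followed the same pattern. It had 178, 189 and 182 CPM in cKO LPS cells, against 58.0, 74.9 and 70.2 CPM in WT LPS cells. The groups were far apart, with a 2.70-fold difference (log2 1.43 ± 0.10). In medium it had 37.6, 33.5 and 37.3 CPM in cKO cells, against 22.8, 22 and 21.6 CPM in WT cells. That is 1.63-fold higher in cKO cells with no overlap (log2 0.70 ± 0.11). The LPS response was 5.06-fold in cKO cells (log2 2.34 ± 0.11) and 3.05-fold in WT cells (log2 1.61 ± 0.11). An overlapping small RNA gene model on the same strand shares 59 exonic bases with Clk4.

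Clk4 was 1 of 2 genes of the set whose promoter window held the cyclic AMP response element TGACGTCA, the site bound by CREB and ATF factors. Its sequence is shown as the promoter of a member with one of the largest responses. RefSeq's window for 9 of the 10 genes (Clk1 was not in the table) runs from 250 bases before to 50 bases after 1 annotated start. For Tra2a (chr6:49264003-49264302) and Srsf2 (chr11:116853045-116853344) that start lies inside the gene span given in this text. Their windows are therefore not upstream of the outermost start of the gene. The 120 bases before the Clk4 start on chromosome 11, plus strand, chr11:51262994-51263113 (GRCm38.p6), are given with the element in capitals.
Clk4: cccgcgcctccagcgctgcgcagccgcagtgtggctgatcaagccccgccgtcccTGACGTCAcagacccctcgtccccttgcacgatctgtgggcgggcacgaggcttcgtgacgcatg
The element, searched on both strands, began at position -65 in Clk4 and at -27 in Tra2a, counted from the start used for each window. Of all 32851 promoter windows, 1.79% held it. The AP-1 letters TGANTCA were in none of the 9 windows and in 7.81% of all. TATAAA was found in Srsf2 and Srsf3 and in 13.6% of all windows, and the heat shock element in Tra2b and in 0.603% of all. A match describes the letters only.

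Clk3, a kinase of nuclear speckles on chromosome 9 (positions 57750621 to 57766235), was higher in cKO cells to a like extent in both conditions. It had 191, 216 and 215 CPM in cKO LPS cells, against 91.6, 139 and 104 CPM in WT LPS cells. The groups did not overlap, although the second WT LPS library lay well above the other two. The difference was 1.86-fold (log2 0.90 ± 0.13), and in medium, with 102, 77.4 and 101 CPM in cKO cells against 49.3, 56.6 and 47.5 CPM in WT cells, it was 1.83-fold (log2 0.87 ± 0.13). LPS raised Clk3 2.22-fold in cKO cells (log2 1.15 ± 0.13) and 2.18-fold in WT cells (log2 1.12 ± 0.13). Clk3 overlaps Edc3, a gene of mRNA decapping on the other strand, over 1284 exonic bases, and whether reads were counted by strand is not given in the sources used here. Edc3 was itself higher, at 48.0 CPM in cKO LPS cells and 33.0 CPM in WT LPS cells (log2 0.54 ± 0.10), and its part in the values of Clk3 was not tested.

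Clk2 stood apart from its relatives in level. Its values between the medium groups and for LPS in WT cells were negative, unlike theirs. Neither passed the threshold with all libraries included. Clk2 lies on chromosome 3 at positions 89164795 to 89177087. With 41 to 92 counts per library it was the lowest member, at 9.76, 7.17 and 6.92 CPM in cKO LPS cells, against 4.59, 6.53 and 4.85 CPM in WT LPS cells. All cKO LPS libraries were higher, but by margins that only just passed the threshold (log2 0.58 ± 0.22, adjusted p = 0.045 in edgeR). The call was lost without any of 4 of the 6 libraries compared, and without both first cKO replicates the log2 fold change was 0.41 (adjusted p = 0.23 in edgeR). On the log2(TPM + 1) scale it was 0.18 (adjusted p = 0.38, limma). In medium Clk2 had 3.81, 4.71 and 4.28 CPM in cKO cells and 4.59, 7.29 and 6.73 CPM in WT cells, with overlap and a log2 fold change of -0.54 ± 0.22 (adjusted p = 0.064 in edgeR), or -0.72 without the first WT medium library (adjusted p = 0.022). LPS raised it 1.87-fold in cKO cells (log2 0.90 ± 0.22), a call lost on the log2(TPM + 1) scale (0.28, adjusted p = 0.13, limma), while in WT cells the LPS and medium libraries overlapped (log2 -0.22 ± 0.22).

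**Figure D2:**
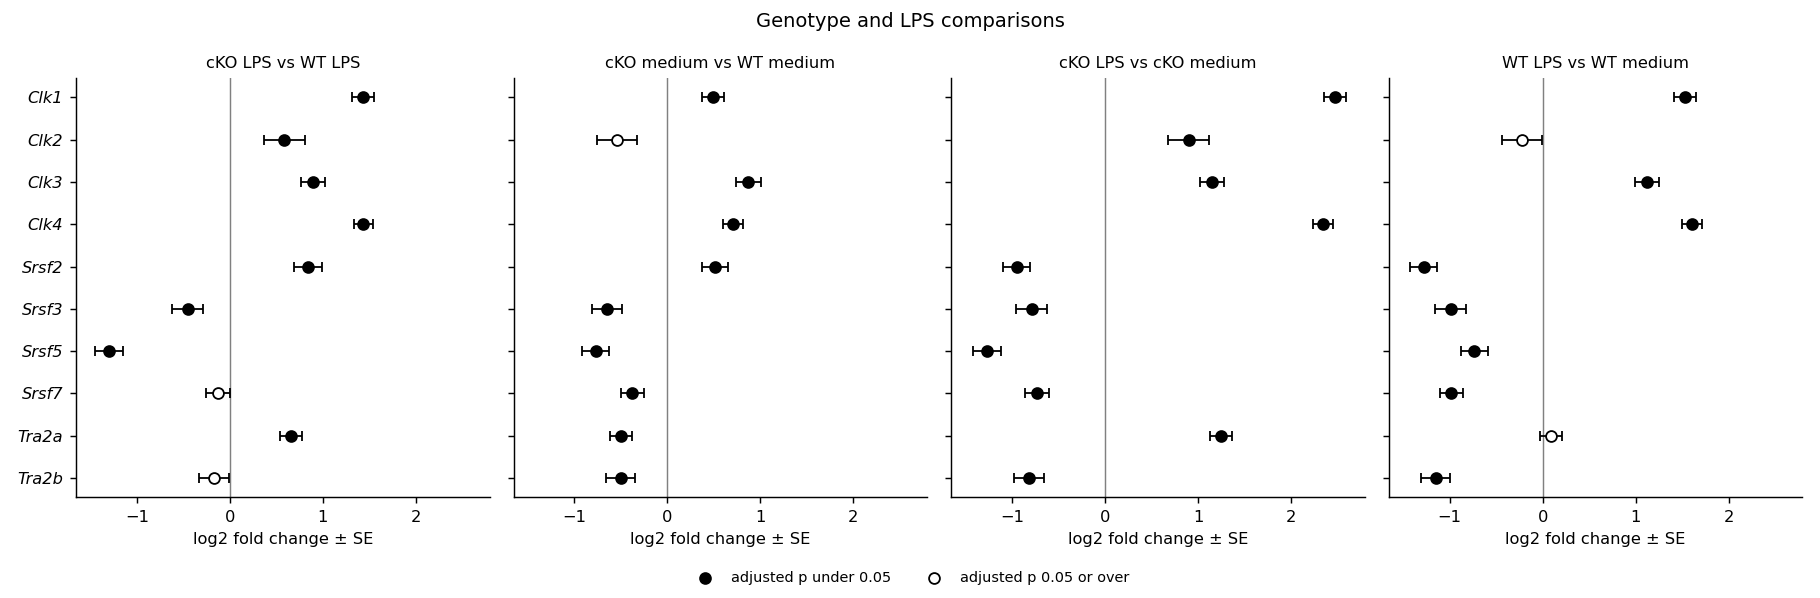
Fitted log2 fold change with SE (horizontal axes) of each gene (vertical axis) in 4 comparisons of genotype and LPS. Filled points passed an adjusted p of 0.05. Clk1, Clk3 and Clk4 lie right of 0 in all 4 panels. Srsf3, Srsf5, Srsf7 and Tra2b lie left of 0 in all 4, not all of them as filled points.

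Among the SR proteins Srsf5 differed most by genotype. Srsf5 binds exonic enhancers and lies on chromosome 12 at positions 80945495 to 80950507. It had 58.7, 59.6 and 49.1 CPM in cKO LPS cells, against 162, 108 and 143 CPM in WT LPS cells. Each cKO library lay far below each WT library, which makes a 2.46-fold lower level (log2 -1.30 ± 0.15). In medium it had 108, 172 and 123 CPM in cKO cells and 237, 227 and 223 CPM in WT cells. The second cKO medium library was the highest of its group but still below all WT libraries, and the fitted level was 1.71-fold lower (log2 -0.77 ± 0.14). LPS lowered Srsf5 2.41-fold in cKO cells (log2 -1.27 ± 0.15) and 1.67-fold in WT cells (log2 -0.74 ± 0.14).

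Srsf3, which regulates both splicing and export of mRNA, was lower with the deletion in medium, and under LPS the groups could not be separated firmly. It had 195, 272 and 236 CPM in cKO medium cells, against 355, 321 and 429 CPM in WT medium cells. These did not overlap, and the fitted level was 1.57-fold lower (log2 -0.65 ± 0.16, adjusted p = 0.0060 in edgeR). Under LPS it had 143, 142 and 122 CPM in cKO cells and 239, 138 and 179 CPM in WT cells, and the second WT library lay below 2 of the cKO libraries. The log2 fold change of -0.45 ± 0.17 passed the threshold (adjusted p = 0.042 in edgeR), but the call was lost without any of 5 of the 6 libraries compared. It was -0.23 without the first WT LPS library (adjusted p = 0.29 in edgeR), -0.43 with Rn45s, the ribosomal RNA precursor, removed before scaling (adjusted p = 0.055) and -0.49 without both first cKO replicates (adjusted p = 0.058). With LPS, Srsf3 was 1.73-fold lower in cKO cells (log2 -0.79 ± 0.17) and 1.98-fold lower in WT cells (log2 -0.99 ± 0.17).

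Srsf7, a close relative of Srsf3, fell with LPS in both genotypes, and between them it passed the threshold in medium but not under LPS. It had 41.3, 41.6 and 49.2 CPM in cKO LPS cells and 57.5, 41.8 and 44.8 CPM in WT LPS cells. These ranges overlapped, with a log2 fold change of -0.13 ± 0.13 that did not pass the threshold (adjusted p = 0.48 in edgeR) and was 0.02 without the first WT LPS library. On the log2(TPM + 1) scale, where the median of all genes lay at -0.31 in this comparison, that of Srsf7 was -0.48 (adjusted p = 0.011, limma). In medium it had 70.9, 78.2 and 69.7 CPM in cKO cells and 91.8, 82.1 and 111 CPM in WT cells. The log2 fold change of -0.38 ± 0.12 (adjusted p = 0.024 in edgeR) was -0.26 without the third WT medium library (adjusted p = 0.15), -0.36 without both first cKO replicates (adjusted p = 0.084) and -0.35 without the third cKO medium library (adjusted p = 0.071). LPS lowered Srsf7 1.66-fold in cKO cells (log2 -0.73 ± 0.13) and 1.98-fold in WT cells (log2 -0.98 ± 0.13).

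Srsf2 was the exception among the SR genes of the set: it fell with LPS like the others of the set, yet was higher in cKO cells. Srsf2 is a broadly acting exon recognition factor on chromosome 11 (positions 116849897 to 116853675). It had 61.5, 57.5 and 53.1 CPM in cKO LPS cells, against 32.9, 29.1 and 34.1 CPM in WT LPS cells. The groups were well separated, with a 1.79-fold difference (log2 0.84 ± 0.15). In medium it had 97.9, 90.3 and 144 CPM in cKO cells and 74.1, 73.8 and 85.4 CPM in WT cells. That difference, log2 0.51 ± 0.14 (adjusted p = 0.0091 in edgeR), depended on the third cKO medium library, without which it was 0.27 (adjusted p = 0.089 in edgeR). With LPS, Srsf2 was 1.93-fold lower in cKO cells (log2 -0.95 ± 0.14) and 2.43-fold lower in WT cells (log2 -1.28 ± 0.15). Its exons overlap those of Mettl23 over 460 bases and of Mfsd11 over 288 bases on the other strand. Between cKO LPS and WT LPS cells Mettl23 (15.6 and 16.3 CPM) and Mfsd11 (40.4 and 46.4 CPM) did not pass the threshold (adjusted p = 0.77 and 0.19 in edgeR). With LPS, Mettl23 fell like Srsf2, by 0.43 on the log2 scale in cKO cells (adjusted p = 0.0076) and by 0.60 in WT cells (adjusted p = 0.00043 in edgeR), and Mfsd11 rose by 0.36 in WT cells (adjusted p = 0.010). The part of these genes in the values of Srsf2 was not tested.

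The Tra2 pair, which bind purine-rich exonic enhancers, diverged. Tra2a lies on chromosome 6 at positions 49243921 to 49264248 and Tra2b on chromosome 16 at positions 22244552 to 22266005. Tra2a had 67.6, 76.7 and 65.2 CPM in cKO LPS cells, against 48.2, 44.1 and 40.8 CPM in WT LPS cells. In medium it had 25.8, 34.8 and 27.7 CPM in cKO cells, against 42.8, 36.1 and 45.9 CPM in WT cells. The cKO libraries were thus all above WT with LPS (1.57-fold, log2 0.65 ± 0.12) and all below WT in medium (1.42-fold lower, log2 -0.50 ± 0.12), although on the log2(TPM + 1) scale the LPS difference was 0.29 (adjusted p = 0.077, limma). LPS raised Tra2a 2.38-fold in cKO cells (log2 1.25 ± 0.12), and in WT cells its LPS and medium libraries overlapped (log2 0.09 ± 0.12, or -0.15 on the log2(TPM + 1) scale and -0.03 with upper-quartile scaling).

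Tra2b had 74.7, 70.2 and 61.5 CPM in cKO LPS cells and 97.6, 54.8 and 79.5 CPM in WT LPS cells. These overlapped (log2 -0.17 ± 0.16, and 0.03 without the first WT LPS library), though on the log2(TPM + 1) scale the value was -0.48 (adjusted p = 0.037, limma) and without the second WT LPS library it was -0.37 (adjusted p = 0.041 in edgeR). In medium it had 119, 129 and 115 CPM in cKO cells, against 167, 147 and 200 CPM in WT cells. No cKO medium library reached a WT one, and the log2 fold change was -0.50 ± 0.15 (adjusted p = 0.020 in edgeR). It was -0.38 without the third WT medium library (adjusted p = 0.10), -0.47 without the third cKO medium library (adjusted p = 0.065) and -0.49 without both first cKO replicates (adjusted p = 0.073). LPS lowered Tra2b 1.76-fold in cKO cells (log2 -0.82 ± 0.16) and 2.22-fold in WT cells (log2 -1.15 ± 0.16).

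The cKO medium libraries, which enter the medium comparison, the LPS response of cKO cells and its interaction with genotype, also stood apart in other measures. Of 11 granulocyte precursor and neutrophil markers tested, 7 were higher and 0 lower in cKO medium cells by edgeR, and their summed level was 1010 to 2970 CPM in cKO medium and 436 to 980 CPM in WT medium. The ribosomal RNA precursor Rn45s took 1.28 to 4.01% of the counts in cKO medium and 6.38 to 8.02% in WT medium. With LPS these values were 547 to 1680 CPM for the markers and 5.38 to 6.15% for Rn45s in cKO cells, and 782 to 2260 CPM and 4.48 to 7.67% in WT cells. Of the 11 markers, 0 were higher and 6 lower with LPS in cKO cells, 3 had a negative interaction of genotype and LPS past the threshold, and none passed between cKO LPS and WT LPS cells. With Rn45s removed before scaling, 9 members passed between the medium groups, 10 with LPS in cKO cells and 4 in the interaction, the same numbers as with it. Of all 11886 genes tested without Rn45s, 3613, 7578 and 2015 passed in these comparisons, in the same order. The part of the markers in the results was not tested.

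Whether the LPS response itself differed by genotype was tested with an interaction term. It was positive and past the threshold for 4 of the 10 genes, where it was for 7.33% of all genes, and negative and past it for 0, where it was for 10.1% of all genes. The LPS response of Clk1 was larger in cKO than in WT cells by 0.94 ± 0.17 on the log2 scale (adjusted p = 0.00099 in edgeR), that of Clk4 by 0.73 ± 0.15 (adjusted p = 0.0026), that of Tra2a by 1.15 ± 0.17 (adjusted p = 0.00020) and that of Clk2 by 1.12 ± 0.31 (adjusted p = 0.016). The value of Clk2 was 0.87 without both first cKO replicates (adjusted p = 0.11 in edgeR). For Clk3, the interaction was 0.03 ± 0.18 (-0.21 on the log2(TPM + 1) scale, adjusted p = 0.34 in limma), with Clk3 higher in cKO cells at both treatments. For Srsf5 it was -0.53 ± 0.21 (adjusted p = 0.082 in edgeR), and -0.77 on the log2(TPM + 1) scale (adjusted p = 0.026, limma). It also passed without the second WT LPS library (-0.68, adjusted p = 0.016 in edgeR). Srsf2, Srsf3, Srsf7 and Tra2b had values of 0.33, 0.20, 0.25 and 0.33 with adjusted p between 0.28 and 0.60 in edgeR. On the log2(TPM + 1) scale those of Srsf3 and Srsf7 were -0.11 and -0.03. Srsf2 had 0.57 without the third cKO medium library (adjusted p = 0.022).

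The cytokines IL10 and TGF-β, given alone to WT cells, left the SR and Tra2 genes without a detected difference. Only Clk1 and Clk4 passed the threshold, both higher, 2 of 10 where 18.3% of all genes were higher and 16.9% lower. Clk1 had 59.0, 48.6 and 45.3 CPM with the cytokines, against 34.4, 34.6 and 26.0 CPM in medium. The groups did not overlap and the difference was 1.61-fold (log2 0.69 ± 0.12). Clk4 had 29.3, 28.2 and 24.7 CPM with the cytokines and 22.8, 22 and 21.6 CPM in medium (log2 0.30 ± 0.11, adjusted p = 0.036 in edgeR), a difference that lost its call without the first cytokine library (0.25, adjusted p = 0.13) or any of 4 other libraries of the 2 groups. The 8 other genes had overlapping ranges and log2 fold changes between -0.15 and 0.13. In the same comparison 10 of 11 granulocyte markers were higher, at sums of 5380 to 8070 CPM with the cytokines and 436 to 980 CPM in medium, and their part in the results was not tested.

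LPS given with the cytokines was compared with LPS alone and with the cytokines alone. These 2 comparisons share the libraries treated with all 3 agents. Against the cytokines alone, LPS with cytokines gave 4 higher and 5 lower genes, where 23.9% of all genes were higher and 23.1% lower. Clk1 had 139, 123 and 111 CPM against 59.0, 48.6 and 45.3 CPM with the cytokines alone (2.44-fold, log2 1.29 ± 0.12), and Clk4 had 84.1, 82.3 and 68.9 CPM against 29.3, 28.2 and 24.7 CPM (2.87-fold, log2 1.52 ± 0.11). Srsf7 showed the largest fall, with 38.5, 38.7 and 37.1 CPM against 82.7, 82.0 and 101 CPM (2.32-fold lower, log2 -1.22 ± 0.13). Clk3 (log2 0.81 ± 0.13), Srsf3 (-0.97 ± 0.17), Srsf5 (-0.84 ± 0.14), Tra2b (-0.69 ± 0.16) and Srsf2 (-0.57 ± 0.14) moved in the direction seen with LPS in the absence of cytokines. Clk2 passed narrowly (0.53 ± 0.20, adjusted p = 0.036 in edgeR) and lost its call without any of 5 of the 6 libraries compared, as with 0.44 (adjusted p = 0.14) without the third cytokine library. Tra2a did not pass (-0.05 ± 0.12).

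Against LPS alone, LPS with cytokines gave 3 higher genes and 1 lower, where 19.1% of all genes were higher and 21.1% lower. Clk1 was 1.36-fold higher (log2 0.44 ± 0.11), at 139, 123 and 111 CPM with LPS and cytokines against 91.2, 94.4 and 89.3 CPM with LPS alone. Srsf2 was 1.47-fold higher (log2 0.56 ± 0.15), at 42.1, 52.4 and 47.1 CPM against 32.9, 29.1 and 34.1 CPM. Both genes showed no overlap, as did Clk2, at 8.24, 8.77 and 9.05 CPM against 4.59, 6.53 and 4.85 CPM (log2 0.71 ± 0.21, or 0.61 with an adjusted p of 0.050 in edgeR without the first WT LPS library). The lower gene, Srsf7, had a log2 fold change of -0.33 ± 0.13 (adjusted p = 0.044 in edgeR), and its call was lost when most single libraries were left out, as with -0.18 (adjusted p = 0.29) without the first WT LPS library. It was also lost with Rn45s removed before scaling (-0.32, adjusted p = 0.057 in edgeR). Tra2b, at 0.31 ± 0.16 (adjusted p = 0.13 in edgeR), had 0.51 without that library (adjusted p = 0.012), and Clk4, at 0.21 ± 0.10 (adjusted p = 0.10), had 0.29 without the second WT LPS library (adjusted p = 0.045). Of the interaction terms between cytokines and LPS, which were positive and past the threshold for 8.88% of all genes, only that of Srsf2 passed, at 0.71 ± 0.20 (adjusted p = 0.017 in edgeR): its fall with LPS was smaller with cytokines than without. Without the second library of LPS with cytokines it was 0.63 (adjusted p = 0.051). Between LPS with cytokines and LPS alone, 7 of the 11 granulocyte markers were higher and 1 lower, at sums of 2990 to 3960 CPM and 782 to 2260 CPM. The 9 macrophage markers with counts summed to 3200 to 3540 CPM with LPS and cytokines and 1880 to 2070 CPM with LPS alone. The part of these markers in the results was not tested.

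**Figure D3:**
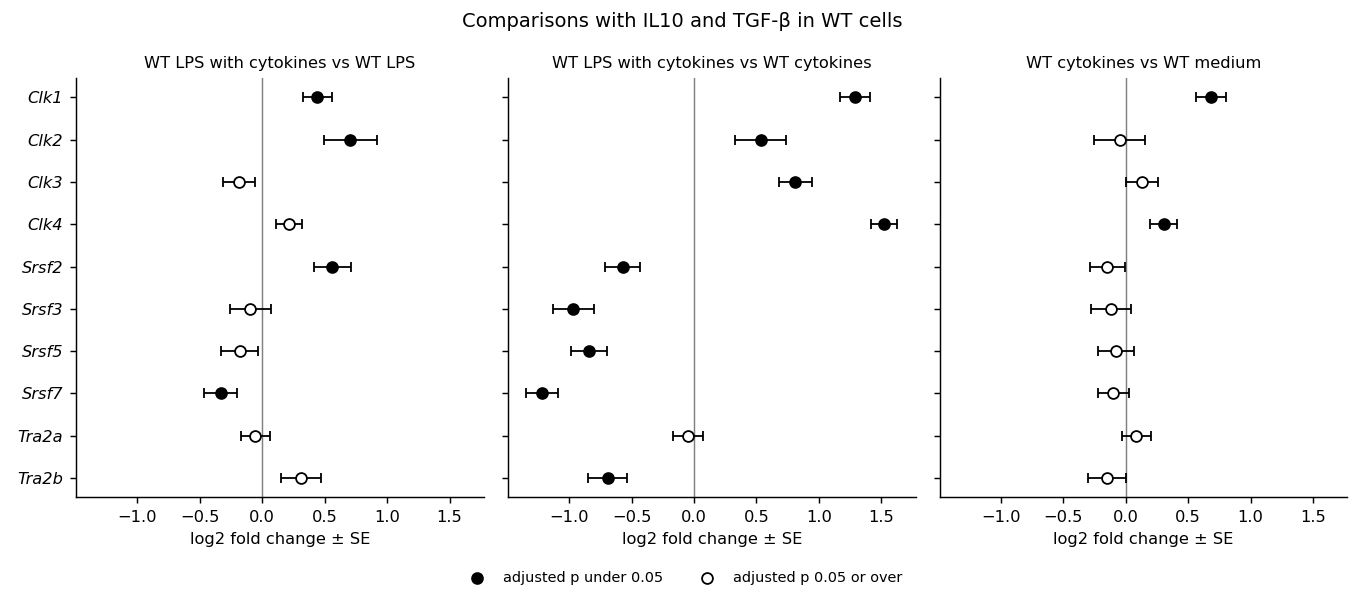
Fitted log2 fold change with SE (horizontal axes) of each gene (vertical axis) in 3 comparisons with IL10 and TGF-β in WT cells. Filled points passed an adjusted p of 0.05; the middle panel, LPS with cytokines against cytokines alone, holds 9 of them, and the right panel, cytokines alone against medium, holds 2.

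The deposited tables also give, for each gene and library, a transcript length averaged over the gene's listed transcripts with their estimated abundance as weights. A gene whose transcripts shift towards longer forms gains length whatever its level. This readout could be tested for 1777 genes with several transcripts and at least 50 expected counts in every library, among them Srsf3, Srsf5, Srsf7 and Clk1 (limma on log2 length, Benjamini-Hochberg adjusted over the 1777). Clk3, Clk4, Srsf2, Tra2a and Tra2b have 1 listed transcript each, and Clk2 fell short of the counts. Between cKO LPS and WT LPS cells, 3 of the 4 genes were longer, where 2.25% of the genes tested were.

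Srsf3 lengthened with LPS and did so further in cKO cells. Its mean length was 2897.2, 2893.5 and 2860.5 bases in cKO LPS cells, against 2729.8, 2738.6 and 2726.3 bases in WT LPS cells. The difference of 152.2 bases (log2 ratio 0.0782 ± 0.0048, adjusted p = 1.1e-06 in limma) was many times the spread within either group. In medium, the lengths were 2614.3, 2609.1 and 2610.2 bases in cKO cells and 2602.0, 2601.8 and 2600.2 bases in WT cells, 9.9 bases apart on average (adjusted p = 0.81 in limma). LPS thus lengthened Srsf3 by 272.5 bases in cKO cells (adjusted p = 8.7e-10) and by 130.3 bases in WT cells (adjusted p = 5.1e-06 in limma), where 4.78% and 2.42% of the genes tested lengthened. The interaction of genotype and LPS was 0.0727 ± 0.0068 (adjusted p = 0.00019 in limma), where 0.619% of the genes were called in that direction. In the 4 of these tests that passed the threshold, Srsf3 had the smallest p of all 1777 genes. By size of change it ranked lower, at 101 between cKO LPS and WT LPS cells. It ranked 64 for LPS in cKO cells, 82 for LPS in WT cells and 102 for the interaction.

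The files list 2 transcripts for Srsf3. If these differ by the poison exon printed above and by nothing else, the change with LPS amounts to 59.8% of its 456 bases in cKO cells and 28.6% in WT cells, and the difference between cKO LPS and WT LPS cells to 33.4%. Whether their ends also differ is not stated in the sources used, so these shares are arithmetic and not a measured exon inclusion. With LPS and cytokines the length was 2722.4, 2701.8 and 2689.4 bases, against 2616.7, 2618.9 and 2602.9 bases with cytokines alone. That rise of 91.7 bases (adjusted p = 0.00016 in limma, where 1.24% of the genes tested lengthened) left it at a difference of -27.1 bases from LPS alone, one that did not pass the threshold (adjusted p = 0.20).

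Srsf5 and Srsf7 lengthened by less. Srsf5 measured 1606.4, 1599.3 and 1603.8 bases in cKO LPS cells, against 1558.7, 1579.9 and 1568.1 bases in WT LPS cells, a gap of 34.3 bases without overlap (adjusted p = 0.00042 in limma). LPS lengthened it by 44.6 bases in cKO cells (adjusted p = 2.8e-05) and by 21.7 bases in WT cells (adjusted p = 0.013 in limma). The call in WT cells was lost with effective lengths in place of lengths (adjusted p = 0.076). Srsf7 measured 2392.3, 2367.6 and 2384.4 bases in cKO LPS cells, against 2355.8, 2337.2 and 2336.4 bases in WT LPS cells. The groups did not overlap and differed by 38.3 bases (adjusted p = 0.012 in limma), with an adjusted p of 0.054 without both first cKO replicates. LPS lengthened Srsf7 by 45.5 bases in cKO cells (adjusted p = 0.0021 in limma), and in WT cells the 20.8 bases did not pass (adjusted p = 0.17). With cytokines, LPS gave 33.2 bases more (adjusted p = 0.044 in limma), a call that was lost when most single libraries were left out, as with an adjusted p of 0.17 without the first cytokine library. The files list 3 transcripts for Srsf5 and 5 for Srsf7, and which of them shifted cannot be read from gene tables.

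Clk1 went the other way. Its mean length was 1910.8, 1930.9 and 1926.2 bases in WT LPS cells, against 2001.6, 2028.4 and 2069.2 bases in WT medium cells, a difference of -110.4 bases with no overlap (adjusted p = 0.018 in limma, where 2.59% of the genes tested shortened). It was already short in cKO medium cells, at 1852.2, 1965.5 and 1892.0 bases, a difference of -129.8 bases from WT medium (adjusted p = 0.014 in limma, where 0.844% of the genes tested were shorter). In cKO cells LPS left it at 1890.6, 1904.1 and 1908.9 bases, a difference of -2.0 bases. With LPS and cytokines its difference from cytokines alone was -166.8 bases (adjusted p = 0.0027 in limma, where 1.74% shortened). The Clk1 length calls for genotype in medium and for LPS in WT cells were not steady. In limma the genotype difference had an adjusted p of 0.060 without both first cKO replicates. It had 0.074 without the third cKO medium library and 0.069 without the third WT medium library. The LPS difference in WT cells had an adjusted p of 0.056 without the first WT LPS library and 0.077 without the third WT medium library (limma). The files list 3 Clk1 transcripts, and which of them shifted cannot be read from gene tables.

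**Figure D4:**
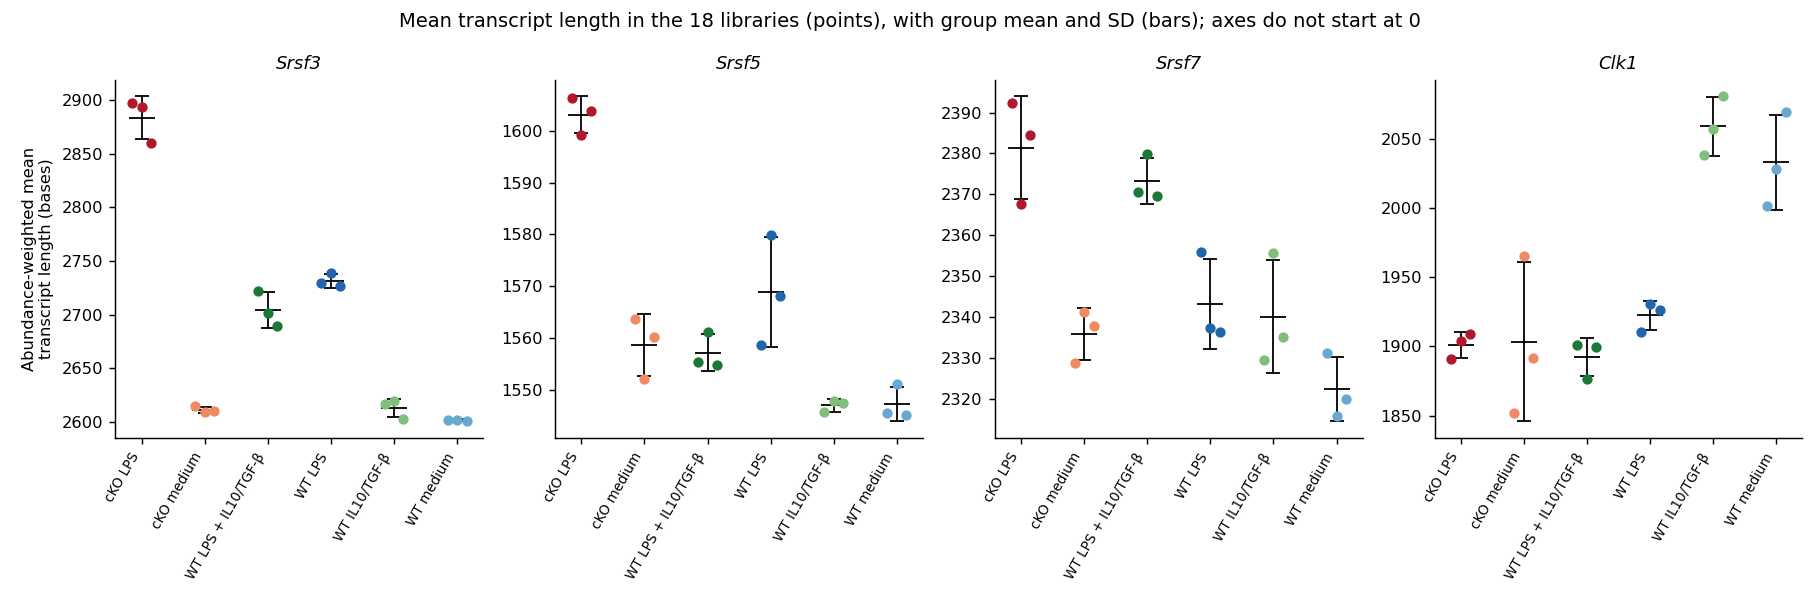
Abundance-weighted mean transcript length in bases (vertical axes, not from 0) of Srsf3, Srsf5, Srsf7 and Clk1 in the 18 libraries, by group. Points are libraries and bars the group mean and SD (n = 3); the 3 cKO LPS libraries hold the longest Srsf3, at 2860.5 to 2897.2 bases, and the WT medium libraries the shortest, at 2600.2 to 2602.0 bases.

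Set side by side, the level of Clk1 and the length of Srsf3 were both highest in cKO cells with LPS, intermediate in WT cells with LPS and low in medium or with cytokines alone. The order did not hold within WT cells: with LPS and cytokines Clk1 was higher than with LPS alone while the mean length of Srsf3 differed by -27.1 bases, which did not pass the threshold. The libraries fall into separate clusters, so no correlation is given.

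**Figure D5:**
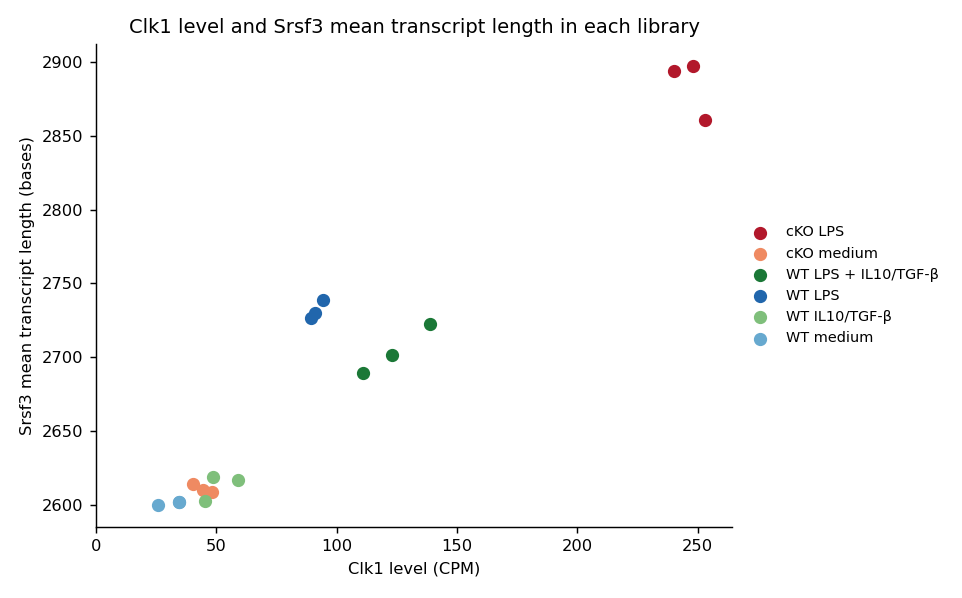
Mean transcript length of Srsf3 in bases (vertical axis, not from 0) against the level of Clk1 in CPM (horizontal axis), 1 point per library, coloured by group. The cKO LPS libraries stand alone at 240 to 253 CPM, and the WT libraries with LPS, with or without cytokines, lie between 89.3 and 139 CPM at 2689.4 to 2738.6 bases.

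Among the other genes of the SR family, Srsf6 fell with LPS in both genotypes. Of 6 tested (Srsf1, Srsf4, Srsf6, Srsf9, Srsf10 and Srsf11), 2 rose and 4 fell with LPS in cKO cells, and 0 rose and 4 fell in WT cells by edgeR, with medians of -0.81 and -0.86 on the log2 scale. Over all genes tested, LPS raised 29.3% and lowered 34.8% in cKO cells and raised 29.8% and lowered 28.9% in WT cells, and the counts of this and the following lists are set beside those shares without a test. Srsf6, which sits near Srsf5 in the family, fell by 1.47 in cKO cells and by 1.25 in WT cells. Under LPS, Srsf11 was higher in cKO cells (log2 0.70 ± 0.09) and Srsf6 and Srsf10 were lower (-0.94 ± 0.16 and -0.62 ± 0.10). The same 3 genes passed the threshold with the same signs in medium, at 0.34, -0.72 and -0.64. Mean length was also tested for Srsf1, which lengthened with LPS in cKO cells (log2 ratio 0.0301, adjusted p = 0.0074 in limma) and was longer in cKO LPS than in WT LPS cells (0.0300, adjusted p = 0.012).

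Of 7 other kinases of SR proteins, 1 was higher and 1 lower in cKO LPS than in WT LPS cells, where 16% of all genes were higher and 19.3% lower, and 3 were higher and 1 lower in cKO medium than in WT medium cells, where 15.8% and 14.4% were. Under LPS, Srpk1 was higher in cKO cells (log2 0.35 ± 0.13, adjusted p = 0.043 in edgeR) and Srpk2 lower (-0.52 ± 0.11), and the other 5 did not pass (median 0.17). In medium, Dyrk3, a kinase that dissolves nuclear speckles, was higher in cKO cells, at 16.2 CPM against 3.79 CPM in WT cells (log2 2.09 ± 0.21). Srpk2 was higher there too (0.28 ± 0.11, adjusted p = 0.048 in edgeR), and Prpf4b lower (-0.55 ± 0.12). Dyrk3 was at 4.0 CPM in cKO LPS cells.

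Among 26 RS-domain and SR-related genes, 6 were higher and 8 lower in cKO LPS than in WT LPS cells, and 2 higher and 8 lower in medium, with medians of 0.14 and -0.13. The shares over all genes were 16% higher and 19.3% lower under LPS and 15.8% and 14.4% in medium. Son, a scaffold of nuclear speckles, was lower under LPS (log2 -0.82 ± 0.10), and Rnps1, an exon junction complex component, higher (0.54 ± 0.10). Arglu1, whose transcript also carries a regulated poison exon, had 5.54 CPM in cKO medium cells and 22.7 CPM in WT medium cells (log2 -2.04 ± 0.27).

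Of the general splicing machinery, more genes were called lower than higher with LPS in both lists examined. Of 23 hnRNP genes, whose proteins often oppose SR proteins at exons, 3 rose, 11 fell and 9 were not called with LPS in cKO cells, and 2 rose, 16 fell and 5 were not called in WT cells. The core snRNP list of 29 genes gave 1 higher and 18 lower in cKO cells and 2 higher and 20 lower in WT cells, where all genes gave 29.3% higher and 34.8% lower in cKO cells and 29.8% and 28.9% in WT cells. Hnrnph3 rose in both genotypes (log2 1.37 and 1.07) and Snrpb, a shared Sm protein of the spliceosomal snRNPs, fell in both (-1.40 and -1.24). The medians over the hnRNP list were -0.27 and -0.71, and over the snRNP list -0.41 and -0.64, in cKO and WT cells. Hnrnpa2b1 shortened with LPS in both (log2 length ratio -0.24 and -0.19, adjusted p = 2.4e-06 and 8.6e-05 in limma).

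Factors of nonsense-mediated decay, the route that removes transcripts with poison exons, were mixed. With LPS, 8 of 14 rose and 2 fell in cKO cells, and 5 rose and 3 fell in WT cells, with medians of 0.54 and 0.32. The shares of all genes were 29.3% higher and 34.8% lower in cKO cells and 29.8% and 28.9% in WT cells. Upf2, a core adaptor of the decay machinery, rose by a log2 fold change of 1.01 ± 0.13 in cKO cells and 1.08 ± 0.13 in WT cells. Eif4a3, the anchor of the exon junction complex, fell in both (-1.10 ± 0.10 and -0.97 ± 0.10). Between cKO LPS and WT LPS cells 1 of the 14 was higher and 3 lower, where 16% of all genes were higher and 19.3% lower. Casc3 was at 0.96 ± 0.17, Smg9 at -0.54 ± 0.13 and Eif4a3 at -0.39 ± 0.10.

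Within the set, Clk1 and Clk4 had the most similar levels over the 18 libraries (Pearson r = 0.976 on log2 CPM), followed by Srsf3 and Tra2b (0.959), and the strongest inverse pair was Clk3 and Srsf5 (-0.973). These values are descriptions over libraries that fall into treatment groups. The genes outside the set most like each member, among 7789 candidates, were Cnot4 and Tgif1 for Clk1 (r = 0.982 and 0.980), Ifrd1 and Ncoa4 for Clk4 (0.987 and 0.986), and Snrnp48 and Ell for Clk3 (0.986 and 0.979). For Srsf3 and Tra2b the most similar gene was Nop58 in both cases (0.984 and 0.980), followed by Nip7 for Srsf3 (0.973) and Rcc1 for Tra2b (0.976). Srsf7 was most like Ranbp1 and Pola1 (0.980 and 0.973), and Srsf5 most like Heatr1 and Srsf10 (0.961 and 0.960). The likeness was weaker for Tra2a (Dhps, 0.925, and Arpc3, 0.916), Srsf2 (Naa10, 0.908, and Sqle, 0.907) and Clk2 (Apbb1ip, 0.852, and Mettl17, 0.80).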

How the data were processed

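The members and gene lists were chosen with earlier results of these data known. Illumina TruSeq libraries were quantified with RSEM on mm10, per the submitters' processing notes; versions and counting strand are not given in the sources used here. The series' design text names BWA, TopHat and Cufflinks instead, and what part they had in these tables is not stated. The deposited tables hold the authors' expected counts, TPM and abundance-weighted mean and effective transcript length in bases (another unit) per gene. Expected counts were rounded, filtered with filterByExpr, scaled by TMM and fitted in edgeR 4.0.16 (R 4.3.3) over the 6 groups of 3 libraries. The fit gave 7 comparisons and 2 interactions. Mean length was fitted on the log2 scale with limma 3.58.1. Calls had a Benjamini-Hochberg adjusted p under 0.05. CPM values in the text use the TMM scaling, and their precision is limited by 8056831 to 12068759 expected counts per library. Alternatives were other scalings (RLE, upper quartile), other filters, DESeq2 1.42.0, limma on log2 TPM with a pseudocount of 1 or 0.1, a replicate block, and leaving out libraries. Both fits were tested on simulated data.

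Replicates of each group differed by more than sampling noise (chi-square per degree of freedom at least 3.64). Of 15 pairs of groups, 2 had same-numbered libraries that all deviated together over 8118 genes with r over 0.1: WT cytokines and WT medium (r = 0.35, 0.21 and 0.44), and WT LPS with cytokines and WT medium (0.25, 0.11 and 0.21), which are not compared directly. The numbers appear to pair these, and the pairing comes from the data, not the labels. The first libraries of cKO LPS and cKO medium also shared high Xist. Between same-numbered libraries of these groups r was 0.17, 0.05 and 0.18. All 10 members are named. Of each other list, up to 2 called genes per direction with the smallest p were named per comparison, and for likeness the 2 genes with the highest Pearson r of log2 CPM. Not every gene that this rule selects is reported here. A protein sequence was not used here.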

Additional observations from a re-analysis of the deposited data

Results flagged for a closer look

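For 4 genes the LPS response differed between the genotypes by a test of the difference itself, on the log2 scale: it was larger in cKO than in WT cells by 0.94 for Clk1, 1.12 for Clk2, 0.73 for Clk4 and 1.15 for Tra2a. Of all genes tested, 7.33% had a positive interaction past the threshold and 10.1% a negative one. Since the members were picked with measured levels in view, their number is a description only. Clk1, Clk4 and Tra2a remained past the threshold without both first cKO replicates, and Clk2 did not (0.87, adjusted p = 0.11 in edgeR). The lengthening of Srsf3 transcripts with LPS was also larger in cKO than in WT cells, by a log2 ratio of 0.073. In WT cells the fall of Srsf2 with LPS differed with and without IL10 and TGF-β, by 0.71.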

How the results depend on the processing

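No value past the threshold, as reported or under an alternative, changed sign. Of the results under it in both, 18 for level and 2 for length changed sign at least once, among them on the log2(TPM + 1) scale the genotype by LPS interactions of Clk3 (-0.21), Srsf3 (-0.11) and Srsf7 (-0.03) and the LPS response of Tra2a in WT cells (-0.15). Of 90 level results of single genes, 68 kept their side of the threshold under all 29 alternatives and 22 changed it at least once; of 36 length results, 29 kept it under all 23 alternatives. Between WT cytokines and WT medium, 2 genes were called and 1 with upper-quartile scaling, no count filter, only the groups compared, or limma on log2 TPM with a pseudocount of 1 or 0.1 (1 to 2 with single libraries left out). The cytokine by LPS interaction gave 1, and 2 with upper-quartile scaling, no count filter or either TPM pseudocount (0 to 2 with single libraries left out). For mean length, cKO medium against WT medium gave 1, and 0 without both first cKO replicates (0 to 1 with single libraries left out), and the genotype by LPS interaction gave 1 (1 to 2 with single libraries left out, the second being Clk1 at 0.10 without the second cKO medium library or Srsf5 at 0.026 without the second WT LPS library). On the log2(TPM + 1) scale the median of all genes was -0.31 between cKO LPS and WT LPS cells and -0.47 between cKO LPS and cKO medium cells, and 11.8% and 21.6% of called genes were higher, against 45.3% and 45.7% in edgeR; Clk1, Clk3, Clk4 and Srsf2 were still higher and Srsf3 and Srsf5 lower in cKO LPS than in WT LPS cells. The replicate block changed no count of members by over 1.5 times; it ended the call of Srsf3 between cKO LPS and WT LPS cells (-0.44, adjusted p = 0.055 in edgeR) and that of Srsf7 length with LPS and cytokines against cytokines (adjusted p = 0.081 in limma). No block value moved a call between WT cytokines and WT medium. Clk2, with at most 92 counts a library, limits what can be seen of it at this depth; the cause of the changes was not tested.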
